A study of Mus musculus with 10 samples.

Results

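The secreted Wnt ligands, their Frizzled (Fzd) receptors and LRP coreceptors, and the proteins that block them outside the cell were followed through chromatin maps of newborn mouse retina from conditional knockouts (cKO) of Casz1 and from controls. Casz1 encodes a zinc finger protein that acts in retinal progenitors. The genes were chosen by name: protein-coding genes of chromosomes 1 to 19 with a symbol of Wnt, Fzd, Sfrp or Dkk followed by a number, plus Frzb, Wif1, Lrp5 and Lrp6. That gave 41 of 20665 genes, made up of 19 Wnt ligands, 10 Frizzled receptors, 2 LRP coreceptors, 5 secreted Frizzled-related proteins (Frzb among them), Wif1 and 4 Dickkopf (Dkk) genes. The rule itself used no measured value, though earlier results of these data were known when the genes and lists were chosen.

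Wnt proteins are secreted lipid-modified ligands that bind Frizzled receptors, and in the canonical branch an LRP5 or LRP6 coreceptor as well, which stabilises beta-catenin for use with TCF/LEF factors. Secreted Frizzled-related proteins and WIF1 bind Wnt ligands directly, and most Dickkopf proteins act on the LRP coreceptor. In the eye the pathway is known for specifying the ciliary margin and pigment epithelium at the edge of the optic cup, and for guiding growth of the retinal vessels. H3K27ac marks active promoters and enhancers, H3K27me3 is the mark of Polycomb repression, and ATAC-seq maps DNA that the Tn5 transposase can reach.

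All groups were C57BL/6 mouse retina. The 2 cKO ATAC libraries came from explants of postnatal day 2 retina given plasmids for GFP and Cre, and the 2 control ATAC libraries from explants given GFP alone and labelled wild type. After 2 days ex vivo, 50000 viable GFP-positive cells were sorted per library, and the pair of experiments fell on separate days. The histone marks were mapped at postnatal day 0 in dissected retina, with 1 Casz1 cKO and 1 wild-type control library per mark. The cKO tissue was taken from the peripheral retina by its fluorescence. The sources used here do not give what drove Cre in these animals, which region the control tissue came from or how many animals were pooled.

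Each library is known by its list of called peaks, which hold positions and no heights or read counts, so its depth is unknown. The ATAC lists held 91931 and 59574 peaks over 51.6 and 19.6 Mb in cKO 1 and cKO 2, against 39636 and 108569 peaks over 11.6 and 59.8 Mb in control 1 and control 2. Each genotype thus has 1 long and 1 short ATAC list. The H3K27ac lists covered 50.7 Mb in cKO and 54.4 Mb in control, and the H3K27me3 lists covered 70.2 Mb in cKO and 71.6 Mb in control. All 8 retinal progenitor markers carried H3K27ac in both genotypes, with 110865 bp in all in cKO and 117192 bp in control. Of 5 liver and muscle genes, Alb and Myh2 had none in either genotype, while Apoa1 had 755 bp in cKO and 747 bp in control, Ttn 2692 bp in cKO and 2575 bp in control, and Ckm 325 bp in cKO and none in control. H3K27ac at 10 ciliary margin markers summed to 54328 bp in cKO and 61106 bp in control, and each of the 8 with the mark had fewer bases in cKO. At 6 vascular markers the sums were 25037 bp in cKO and 32639 bp in control, fewer in cKO at all 6. The progenitor markers had fewer bases in cKO at 7 of 8, the lens markers at 4 of 4, and all genes with the mark at 63.1%. The rod markers had fewer at 4 of 6 and the astrocyte markers at 3 of 4. Of the 4 pigment epithelium and 4 microglia markers with the mark, 2 of each had fewer. What part the cells sampled play in the values that follow was not tested. In bulk chromatin, fewer cells of a type and less of a mark per cell cannot be told apart.

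For each gene the bases under peaks were summed over the gene body plus 5 kb either side. The start windows of 4 genes that the results turn on are shown first, each running from 250 bases before to 50 after the annotated start (RefSeq, GRCm38.p6, the assembly called mm10), 5′ to 3′ in the direction of the gene, with every CpG in capitals. Fzd5 is shown for the largest H3K27ac share among genes with such a window after Dkk3, which has none here. Fzd10 and Wnt1 had the whole window under H3K27me3, and the start of Frzb met a histone peak in 1 genotype only.
Frzb (chr2:80447347-80447646, minus strand): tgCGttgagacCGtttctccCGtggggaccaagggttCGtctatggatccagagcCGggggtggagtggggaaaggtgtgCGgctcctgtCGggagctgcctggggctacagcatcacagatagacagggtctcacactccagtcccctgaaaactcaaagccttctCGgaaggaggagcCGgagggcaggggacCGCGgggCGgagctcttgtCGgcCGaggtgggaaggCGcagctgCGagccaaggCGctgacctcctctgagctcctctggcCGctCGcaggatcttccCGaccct
Fzd5 (chr1:64737701-64738000, minus strand): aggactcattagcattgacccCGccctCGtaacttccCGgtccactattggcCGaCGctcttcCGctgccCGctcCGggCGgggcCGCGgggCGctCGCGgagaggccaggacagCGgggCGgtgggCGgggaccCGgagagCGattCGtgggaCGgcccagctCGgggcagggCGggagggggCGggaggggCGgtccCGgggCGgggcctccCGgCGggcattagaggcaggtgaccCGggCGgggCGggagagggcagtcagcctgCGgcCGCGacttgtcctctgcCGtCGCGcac
Fzd10 (chr5:128600856-128601155, plus strand): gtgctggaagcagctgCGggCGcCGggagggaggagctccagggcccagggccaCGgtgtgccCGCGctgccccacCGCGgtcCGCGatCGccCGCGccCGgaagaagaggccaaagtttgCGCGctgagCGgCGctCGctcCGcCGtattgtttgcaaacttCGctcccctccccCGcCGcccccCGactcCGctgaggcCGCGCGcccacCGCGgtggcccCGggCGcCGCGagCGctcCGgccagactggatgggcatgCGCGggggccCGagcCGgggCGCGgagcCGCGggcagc
Wnt1 (chr15:98789607-98789906, plus strand): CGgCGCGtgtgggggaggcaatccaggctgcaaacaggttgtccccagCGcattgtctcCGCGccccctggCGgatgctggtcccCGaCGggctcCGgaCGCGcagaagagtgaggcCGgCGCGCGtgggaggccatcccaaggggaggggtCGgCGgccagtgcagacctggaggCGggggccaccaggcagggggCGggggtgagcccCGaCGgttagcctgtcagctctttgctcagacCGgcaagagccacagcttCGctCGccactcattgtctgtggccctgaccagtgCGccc
They hold 20, 38, 45 and 26 CpG in the order printed, against a median of 14 over 20085 start windows of all genes and of 25.5 over the 30 start windows that 27 of the Wnt family genes have. The letters TCAAAG, the core that TCF/LEF factors read, were searched on both strands. They were in 5 of the 30 windows (16.7%), that of Frzb among them, and in 14.2% of all start windows. TAATTA, a homeodomain core, was in 1 of the 30 (3.33%), at Wnt8b, and in 4.48% of all.

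H3K27me3 was found at all 19 ligand genes and at 8 of 10 Frizzled genes in cKO and 9 of 10 in control. The ligand genes carried it over a median of 39.7% of the window in cKO and 42.7% in control, against 22.7% in cKO and 23.7% in control for the Frizzled genes and none at Lrp5 and Lrp6. The ranges of ligands and Frizzled genes overlapped, from 3.66% to 100% in cKO and 2.96% to 100% in control for ligands and from 0 to 100% in both genotypes for Frizzled genes. The median over all 20665 genes was 0 in both genotypes. At least 50% of the window was covered at the same 11 Wnt family genes in both genotypes, which is 26.8% of the family, against 4.11% of all genes in cKO and 4.17% in control. All 10 Frizzled genes and both LRP genes had H3K27ac, and 14 of 19 ligand genes had it in cKO (73.7%) and 13 in control (68.4%), where 72.8% of all genes in cKO and 72.7% in control did. The Frizzled genes had it over medians of 11.5% of the window in cKO and 13.0% in control, while the ligand medians were 0.69% in cKO and 1.20% in control and those of all genes 3.22% in cKO and 3.38% in control. The shares depend on window length as well, and most Frizzled windows were shorter than most ligand windows. A peak of given length thus takes a larger share at most Frizzled genes. Fzd3 and Fzd6, the Frizzled genes with the longest windows, had H3K27ac over 4.79% and 4.50% in cKO and 4.97% and 4.44% in control. All these shares describe the families and were not tested, since the genes of a family are not replicates.

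**Figure D1:**
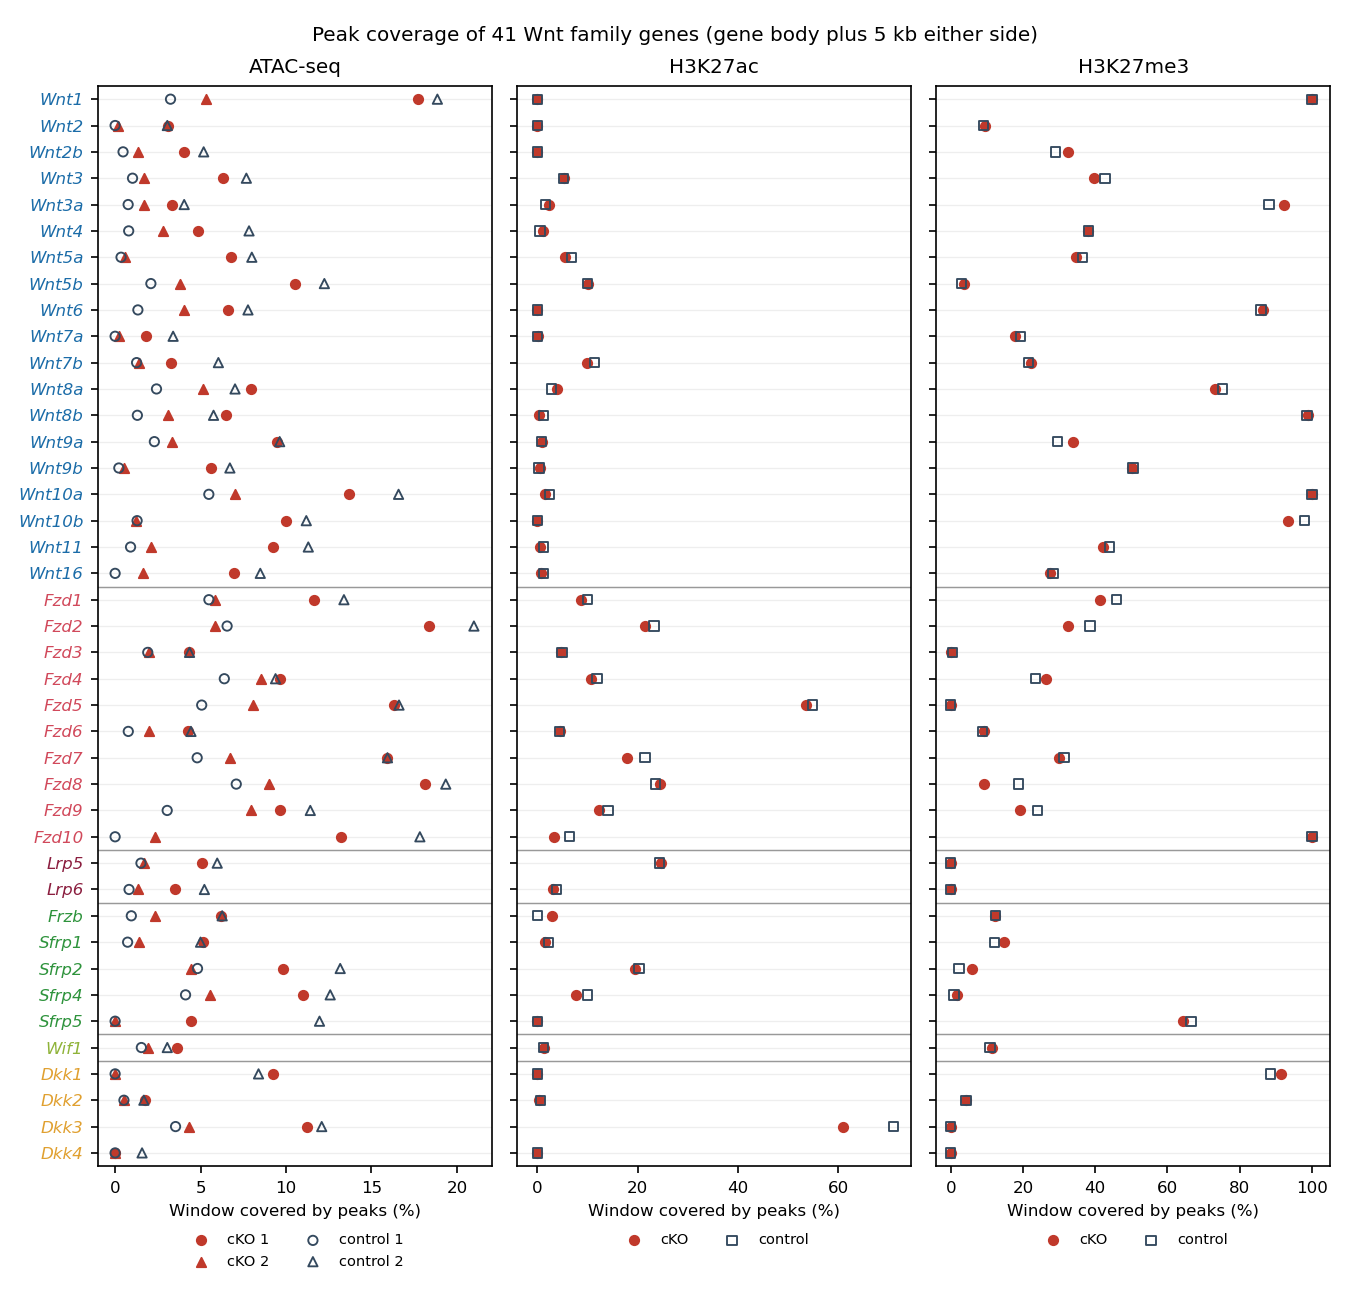
Share of each gene's window (gene body plus 5 kb either side, in %) under ATAC, H3K27ac and H3K27me3 peaks, 1 row per gene; filled red symbols are cKO lists and open symbols control lists. All 19 ligands lie above 0 for H3K27me3, and in the ATAC panel cKO 1 and control 2, the long lists, lie right of cKO 2 and control 1 at 40 of 41 genes, Dkk4 being the exception.

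Most of the ligand genes with the broadest H3K27me3 stood in pairs. Wnt1, a midbrain and dorsal neural tube ligand, and Wnt10b, its neighbour on chromosome 15, shared a single peak of 43.379 kb in cKO and 43.479 kb in control. Its ends differed between genotypes by 23 and 77 bp. The window of Wnt1 was covered to 100% in both, and that of Wnt10b to 93.4% in cKO and 97.9% in control. Neither gene had H3K27ac in either genotype. Wnt1 held ATAC peaks over 2476 and 742 bp in cKO 1 and cKO 2, against 453 and 2635 bp in control 1 and control 2. At Wnt10b the ATAC bases were 1749 and 214 in cKO and 225 and 1957 in control. At both genes the long lists were high and the short lists low, and the genotypes overlapped.

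Wnt6 and Wnt10a, neighbours on chromosome 1, lay under a single H3K27me3 peak of 51.2 kb in cKO and 50.8 kb in control, the widest over any Wnt family gene. By width it ranked 27 in the cKO list and 30 in the control list. The Wnt6 window was covered to 86.3% in cKO and 85.9% in control, and that of Wnt10a, a ligand of tooth and skin, to 100% in both. Wnt6 had no H3K27ac, and Wnt10a had 323 bp in cKO and 528 bp in control. ATAC peaks covered 2710 and 1647 bp in cKO, against 546 and 3186 bp in control, at Wnt6. The same lists gave 3029 and 1551 bp in cKO, against 1215 and 3675 bp in control, at Wnt10a.

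The third pair was Wnt3a and Wnt9a on chromosome 11. Their windows met a common peak whose called length differed, at 38.56 kb in cKO and 28.717 kb in control. In both genotypes it ended short of the Wnt9a gene body and met only the flank of that gene. The right ends lay 328 bp apart and the left ends 10171 bp apart. The plot of ligand pairs shows the rest of that stretch under separate, shorter control peaks. The gaps between those control peaks were short. Peaks farther left in the Wnt3a window also differed between genotypes. H3K27me3 covered 92.2% of the Wnt3a window in cKO (48613 bp) and 88.1% in control (46443 bp). The Wnt9a window was covered to 34.0% in cKO and 29.6% in control. Wnt3a had 1208 bp of H3K27ac in cKO and 844 bp in control, and ATAC peaks over 1756 and 903 bp in cKO, against 402 and 2130 bp in control. Wnt9b and Wnt3 are also neighbours on chromosome 11. H3K27me3 covered 50.0% of the Wnt9b window in cKO and 50.4% in control, and 39.7% and 42.7% of the Wnt3 window. Their widest peaks were different ones, of 12.8 kb in cKO and 12.6 kb in control at Wnt9b. At Wnt3 the widest was 11.4 kb in cKO and 11.2 kb in control.

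**Figure D2:**
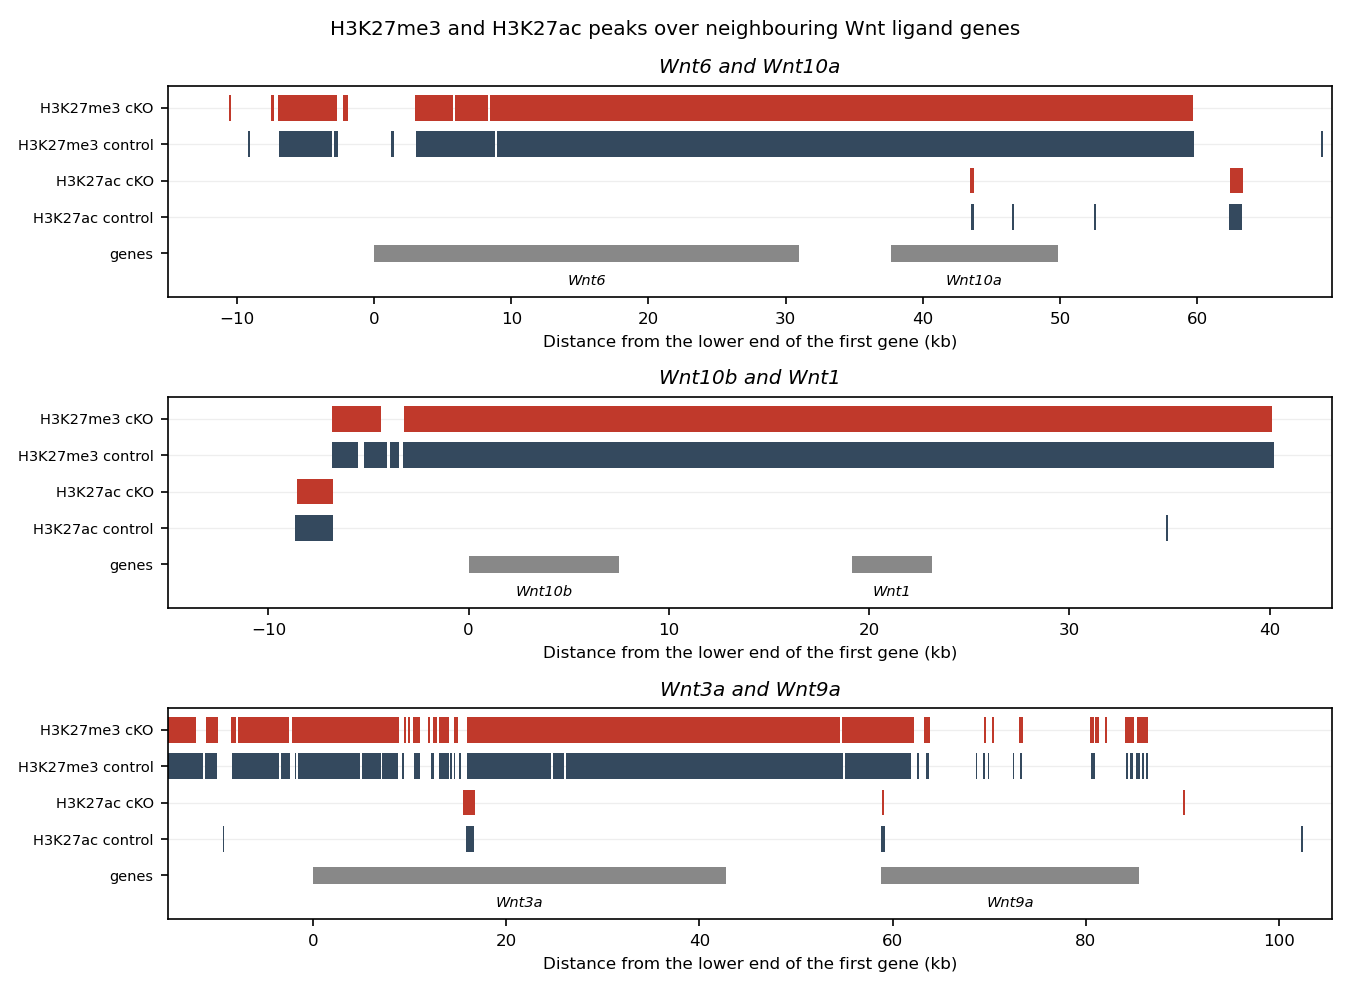
H3K27me3 and H3K27ac peaks of the cKO (red) and control (dark) lists over 3 pairs of neighbouring ligand genes, with gene bodies in grey; the x axis is the distance in kb from the lower end of the first gene. Wnt10b and Wnt1 share a peak of 43.379 kb in cKO and 43.479 kb in control. The peak that meets the windows of Wnt3a and Wnt9a is called as 38.56 kb in cKO and 28.717 kb in control. It ends short of the Wnt9a gene body in both.

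Wnt8b, a ligand of the developing forebrain, was covered by H3K27me3 to 98.9% in cKO and 98.6% in control. Its H3K27ac lay downstream of the gene body, in a peak of 117 bp in cKO (chr19:44515344-44515460) and one of 386 bp in control (chr19:44514823-44515208) that did not overlap. With 200 bp added to both values, the log2 ratio was -0.89. Wnt8b also held the one ATAC region of the family that both cKO lists called and both control lists lacked, at chr19:44514564-44514757, just past the end of the gene and under H3K27me3 in both genotypes. Over the window, ATAC peaks covered 1995 and 953 bp in cKO, against 401 and 1774 bp in control, which overlap.

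Wnt11 and Wnt7a were the other ligands past 1.5-fold in H3K27ac, on few bases. Wnt11 had 149 bp in cKO inside a control peak of 356 bp (log2 ratio -0.67), under H3K27me3 that covered 42.2% of the window in cKO and 43.9% in control. Wnt7a, a ligand known for its part in limb and synapse formation, had a single H3K27ac peak of 128 bp in cKO and is listed at 0 in control. Its H3K27me3 covered 10176 bp in cKO and 11054 bp in control. The ATAC bases of Wnt11 were 2747 and 619 in cKO, against 268 and 3353 in control. Those of Wnt7a were 1033 and 130 in cKO, against 0 and 1947 in control.

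Among the ligands known in the eye, Wnt7b, Wnt5a and Wnt2b differed in their active mark. Wnt7b, a canonical ligand that triggers regression of the hyaloid vessels, had 5569 bp of H3K27ac in cKO and 6469 bp in control beside 12467 bp of H3K27me3 in cKO and 12175 bp in control. Wnt5a, the typical non-canonical ligand, had 1854 bp of H3K27ac in cKO and 2243 bp in control, and every one of those bases was also under H3K27me3. Wnt2b, a ligand of the peripheral eye, had no H3K27ac in either genotype and H3K27me3 over 8714 bp in cKO and 7809 bp in control. The start of Wnt2b was open in all 4 ATAC lists. ATAC peaks over the Wnt2b window covered 1088 and 366 bp in cKO, against 125 and 1394 bp in control. At Wnt5a they covered 2239 and 197 bp in cKO, against 114 and 2632 bp in control. The Wnt7b values were 1843 and 788 bp in cKO, against 709 and 3407 bp in control. In all 3 genes the lowest and the highest value were both control, so the cKO pair lay within the control pair.

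The other 8 ligand genes (Wnt2, Wnt3, Wnt4, Wnt5b, Wnt8a, Wnt9a, Wnt9b and Wnt16) were past 1.5-fold in neither mark. Their H3K27me3 ran up to 73.2% of the window in cKO and 75.3% in control, at Wnt8a. The lowest share was at Wnt5b, a non-canonical ligand gene, with 3.66% in cKO and 2.96% in control. Wnt5b had the most H3K27ac bases of any ligand gene, 12416 bp in cKO and 12199 bp in control, in a window that also holds Fbxl14. Wnt2 had no H3K27ac in either genotype.

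The receptors carried the active mark, and most carried both. Fzd5, which is needed for eye formation and is expressed in retinal progenitors, had H3K27ac over 9209 bp in cKO (53.6% of its window) and 9440 bp in control (54.9%), and no H3K27me3. Its start window, printed above, was fully under H3K27ac in both genotypes. ATAC peaks covered 2808 and 1385 bp in cKO, against 871 and 2856 bp in control. The widest H3K27ac peak at Fzd5 was 8814 bp in cKO and 8785 bp in control. Part of Ccnyl1 lies in this window, so its peaks cannot all be assigned to Fzd5.

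Lrp5 and Lrp6, the coreceptors, carried H3K27ac without H3K27me3. Lrp5, which acts with Fzd4 in retinal vessels, had 27642 bp in cKO and 27194 bp in control, and Lrp6 had 4116 bp in cKO and 4999 bp in control. Their ATAC peaks covered 5676 and 1896 bp in cKO, against 1690 and 6677 bp in control, at Lrp5. The Lrp6 values were 4601 and 1713 bp in cKO, against 1064 and 6813 bp in control. Both coreceptors thus kept the order of the list lengths.

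Fzd4, the Norrin receptor of retinal vessels, had H3K27ac over 1686 bp in cKO and 1873 bp in control and H3K27me3 over 4133 bp in cKO and 3691 bp in control. Its ATAC bases, 1517 and 1344 in cKO against 1006 and 1478 in control, had the narrowest range of the 10 Frizzled genes. Fzd2, Fzd7 and Fzd9, receptors for Wnt ligands, likewise had both marks. Fzd2 had 2923 bp of H3K27ac in cKO and 3169 bp in control, with 4407 bp of H3K27me3 in cKO and 5259 bp in control. Fzd7 had 2655 bp of H3K27ac in cKO and 3179 bp in control, with 4448 bp of H3K27me3 in cKO and 4644 bp in control. Fzd9 had 1483 bp of H3K27ac in cKO and 1705 bp in control, with 2318 bp of H3K27me3 in cKO and 2901 bp in control. All 3 had fewer bases of each mark in cKO, by less than 1.5-fold. ATAC peaks covered 2503 and 793 bp in cKO, against 893 and 2861 bp in control, at Fzd2. They covered 2360 and 999 bp in cKO, against 711 and 2360 bp in control, at Fzd7. The Fzd9 values were 1170 and 963 bp in cKO, against 369 and 1383 bp in control, and again the groups overlapped.

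Fzd10 was the receptor with the most H3K27me3. Its window was covered to 100%, by a peak of 21.2 kb in cKO and 18.1 kb in control. A peak of H3K27ac lay across its start within that domain, 430 bp long in cKO (from -285 to 144 bp from the start) and 841 bp long in control (from -684 to 156 bp), a log2 ratio of -0.72. The right end of this Fzd10 peak thus differed little between genotypes, and the left end accounted for most of the difference in length. ATAC peaks covered 1719 and 305 bp in cKO, against 0 and 2316 bp in control.

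Fzd8 and Fzd3 were the receptors past 1.5-fold in H3K27me3, both lower in cKO. Fzd8, a receptor that responds to canonical ligands, had 1223 bp in cKO and 2494 bp in control (log2 ratio -0.92). At a control peak of 1306 bp just outside Fzd8, the cKO list held 2 fragments of 146 and 134 bp. The peak inside the gene was 943 bp long in cKO and 1188 bp in control. Fzd3, a receptor of planar polarity and axon guidance, is listed at 0 for H3K27me3 in cKO, and in control it had peaks of 238 and 222 bp just outside the gene. Both receptors kept their H3K27ac, at 3272 bp in cKO and 3146 bp in control for Fzd8. The Fzd3 window had 3835 bp of H3K27ac in cKO and 3974 bp in control. ATAC bases were 2421 and 1200 in cKO, against 946 and 2582 in control, at Fzd8. At Fzd3 they were 3440 and 1596 in cKO, against 1528 and 3485 in control, so that the pairs overlapped at both.

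**Figure D3:**
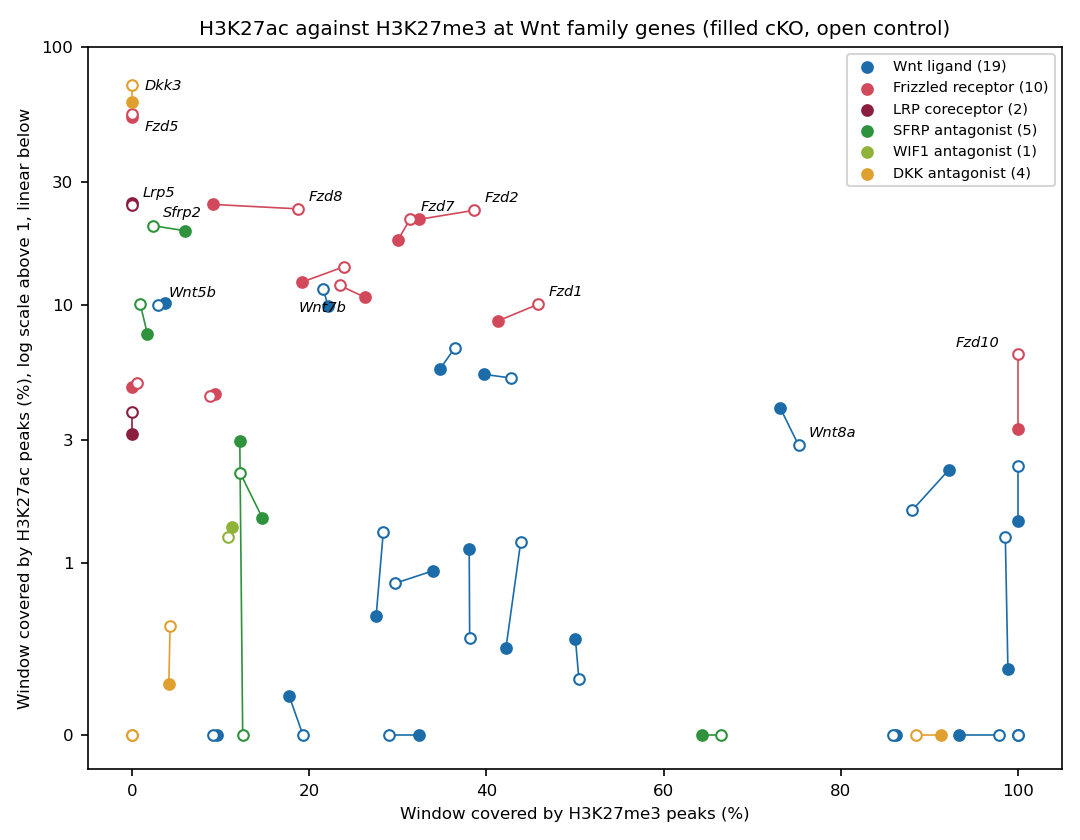
Share of each gene's window under H3K27ac (y axis, %, log scale above 1 and linear below) against the share under H3K27me3 (x axis, %), with a line joining the cKO value (filled) to the control value (open) of a gene. Dkk3 and Fzd5 sit at the top left with 53.6% to 70.9% H3K27ac and no H3K27me3, and Wnt1 sits at the lower right with 100% H3K27me3 and no H3K27ac. The other Frizzled genes spread along the x axis, Fzd10 at 100% H3K27me3 included.

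Among the secreted antagonists, Dkk3 held the most H3K27ac and Dkk1 the most H3K27me3. Dkk3, the divergent Dickkopf gene that retinal progenitors express strongly, had the largest H3K27ac share of the family, 60.9% in cKO (32586 bp) and 70.9% in control (37914 bp), and no H3K27me3. That log2 ratio is within 1.5-fold. ATAC peaks at Dkk3 covered 6008 and 2324 bp in cKO, against 1891 and 6463 bp in control. Dkk1, the classical LRP6 blocker and a head inducer, had H3K27me3 over 91.3% of its window in cKO and 88.5% in control and no H3K27ac. Open bases at Dkk1 were found in the long lists alone, 1261 bp in cKO 1 and 1143 bp in control 2, with 0 in cKO 2 and control 1. Dkk4 held a single ATAC peak of 226 bp in control 2 and no peak in the other 7 lists. Dkk2 had H3K27ac over 311 bp in cKO and 666 bp in control (log2 ratio -0.76), far inside the gene, and H3K27me3 over 4341 bp in cKO and 4485 bp in control. Its ATAC bases were 1832 and 542 in cKO, against 542 and 1767 in control.

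Frzb, also called Sfrp3, had the largest log2 ratio of the family in H3K27ac, while in covered bases Dkk3 differed more. It had 1346 bp in cKO and is listed at 0 in control, and it was the only one of 20665 genes with at least 1000 bp in the cKO list and none in the control list. There were 293 genes listed in cKO alone and 273 in control alone, and none of the 273 had 1000 bp. The largest of its 3 cKO peaks, chr2:80446870-80447926, was 1057 bp long and crossed the start, from position -530 to position 526, counted from the start. The others, 140 and 149 bp long, lay upstream and inside the gene. The H3K27me3 domain over the start of Frzb was found in both genotypes, at 4590 bp in cKO and 4746 bp in control, with ends 79 and 77 bp apart. In cKO, 1197 bp of the H3K27ac lay under H3K27me3 as well. ATAC peaks over the Frzb window covered 2822 and 1073 bp in cKO, against 431 and 2846 bp in control, and the start was open in all 4 lists. The H3K27ac libraries have no replicate, so this difference was not tested.

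**Figure D4:**
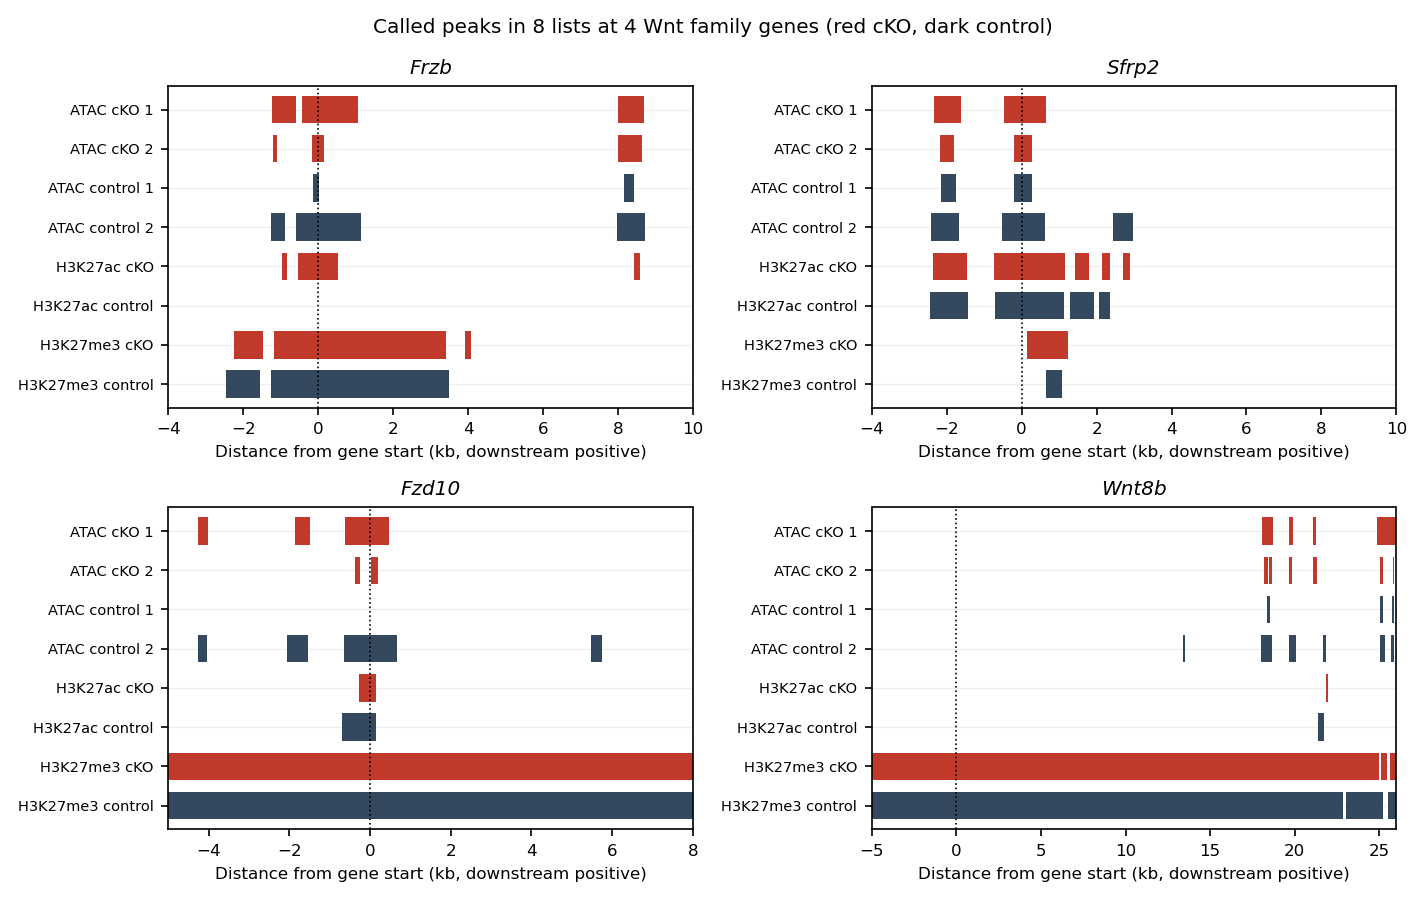
Called peaks in the 8 lists around Frzb, Sfrp2, Fzd10 and Wnt8b (red cKO, dark control) by distance in kb from the annotated start, downstream positive. At Frzb the H3K27ac control row is empty while cKO has a peak of 1057 bp across the start, and the H3K27me3 peak over the start is 4590 bp in cKO and 4746 bp in control.

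Sfrp2 and Sfrp1 are expressed in the developing optic cup and are needed together for normal retinal development. Sfrp2 was the one Wnt family gene past 1.5-fold higher in H3K27me3, at 1105 bp in cKO and 425 bp in control (log2 ratio 1.06). The control peak lay wholly inside the cKO peak, which ran from 137 to 1241 bp after the start. H3K27ac at Sfrp2 covered 3600 bp in cKO and 3766 bp in control, including the whole start window in both. Bases of Sfrp2 under both marks numbered 1032 in cKO and 425 in control. Its ATAC bases were 1821 and 829 in cKO, against 895 and 2445 in control. Sfrp1 had 720 bp of H3K27ac in cKO and 1080 bp in control, all of it under H3K27me3, which covered 7091 bp in cKO and 5869 bp in control. ATAC peaks at Sfrp1 covered 2479 and 679 bp in cKO, against 353 and 2412 bp in control, so cKO 1 was the highest and control 1 the lowest.

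Fzd1, Fzd6, Sfrp4, Sfrp5 and Wif1 were likewise past 1.5-fold in neither mark. Sfrp5 had H3K27me3 over 64.3% of its window in cKO and 66.5% in control and no H3K27ac, and Sfrp4 had H3K27ac over 7.72% in cKO and 10.1% in control with at most 336 bp of H3K27me3.

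Counted over the family, 2 of 33 genes with H3K27ac were at least 1.5-fold higher in cKO (Frzb and Wnt7a), where 3.16% of all 15309 genes with the mark were. The 4 lower were Dkk2, Fzd10, Wnt11 and Wnt8b, where 4.88% of all genes were. For H3K27me3, 1 of 36 genes was higher (Sfrp2), against 10.4% of all 10769 genes, and 2 were lower (Fzd3 and Fzd8), against 12.5%. The genes compared were not matched for covered bases. The median H3K27me3 share was 27.5% of the window in cKO and 28.4% in control over the family. Over all 20665 genes it was 0 in both. The median log2 ratio over the family was -0.11 for H3K27ac and -0.00 for H3K27me3, beside -0.06 and -0.02 over all genes. H3K27ac bases were fewer in cKO at 20 of the 33 genes (60.6%) and at 63.1% of all genes. With 1 library per genotype and mark, these counts carry no test. Of the calls in H3K27ac, that of Frzb alone held when genes under 1000 bp in both lists were left out or when 1000 bp in place of 200 bp was added. With that larger addition, no gene stayed higher in H3K27me3 and Fzd8 alone stayed lower. Within the gene body alone, the log2 ratio was -0.05 for H3K27ac at Fzd10 and -0.28 for H3K27me3 at Fzd8, both inside 1.5-fold. With peaks under 300 bp left out, the Dkk2 log2 ratio turned to 1.35.

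**Figure D5:**
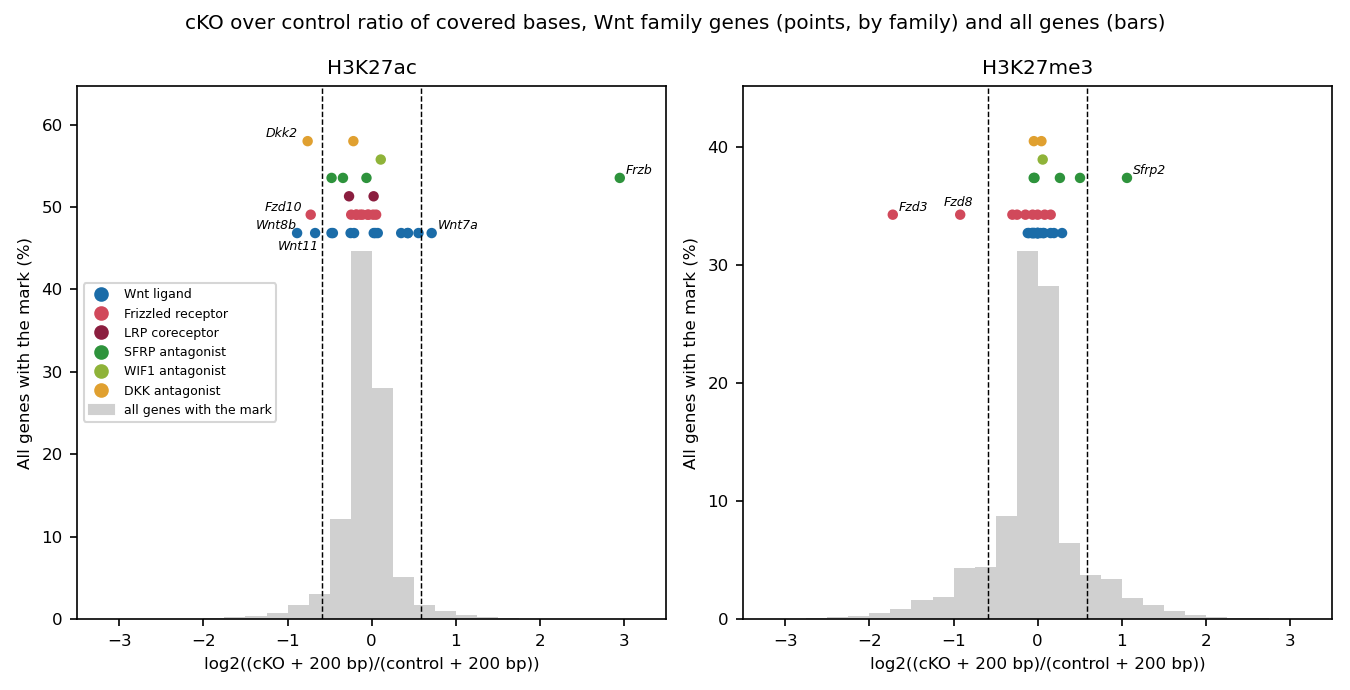
log2 of cKO over control covered bases, with 200 bp added to each, for H3K27ac and H3K27me3; points are Wnt family genes in 1 row per family, grey bars the share of all genes with the mark (%), and dashed lines 1.5-fold. Frzb lies at 2.95 for H3K27ac, Sfrp2 at 1.06 and Fzd8 at -0.92 for H3K27me3, and most other points lie between the dashed lines.

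Both marks were present in the window of 28 family genes in cKO and 27 in control, against 40.0% of all genes in cKO and 40.4% in control. In the family this is 68.3% in cKO and 65.9% in control. The marks shared bases at 22 genes in cKO and 21 in control. H3K27me3 stood without H3K27ac at 7 genes in cKO (17.1%) and 9 in control (22.0%), against 8.74% of all genes in cKO and 8.75% in control. H3K27ac stood without H3K27me3 at 5 in cKO (12.2%) and 4 in control (9.76%), against 32.8% of all genes in cKO and 32.3% in control. Where a mark had to cover 5% of the window to count, 10 genes had both in control: Fzd1, Fzd2, Fzd4, Fzd7, Fzd8, Fzd9, Fzd10, Wnt3, Wnt5a and Wnt7b. A peak of given length reaches 5% more readily in a short window. Of 35 genes with the mark in both genotypes, 28 had a widest peak whose ends both fell within 1 kb of each other; the same count over all genes was not made. The widest peaks shared no bases between genotypes at Wnt7a, Sfrp4 and Fzd8. Of these, Sfrp4 is still among the 28, with widest peaks of only 206 bp in cKO and 178 bp in control. The 28 also count 1 peak at both Wnt6 and Wnt10a, and 1 at both Wnt10b and Wnt1.

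No Wnt family gene had its ATAC bases in both cKO lists above both control lists, where 0.158% of 17133 genes did, and none had both below, where 0.0992% did. With 2 libraries against 2, the two-sided exact permutation test cannot go below p = 0.333, so this count stands in its place. The values followed the length of the lists: at 40 of 41 genes cKO 1 and control 2 both exceeded cKO 2 and control 1. The count rests on having both control lists: without control 1, 32 genes were lower in cKO, and without control 2, 34 were higher. Without cKO 1, 3 genes were lower, and without cKO 2, 8 were higher. The order control 2, cKO 1, cKO 2, control 1 held at 27 genes. Divided by the total of each list, Frzb, Fzd6 and Wnt8b were higher in both cKO lists (5.79% of all genes were) and Lrp5, Lrp6 and Wnt7b lower (3.51% of all genes).

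The 41 windows met 206 ATAC regions, formed by joining overlapping peaks of the 4 lists. Of these, 74 (35.9%) were called in all 4 lists, against 28.2% of 116384 regions genome-wide, and 43 (20.9%) were called in cKO 1 and control 2 alone, against 28.0% of all. The region beside Wnt8b was the 1 called in both cKO lists only (0.273% of all regions); its peaks are shorter than 300 bp and lie outside the gene body, so neither a width minimum of 300 bp nor the gene body alone kept it. None was called in both control lists only (0.125% of all regions). H3K27me3 lay over 42.7% of the family's regions in cKO and 43.2% in control, against 12.3% of all regions in cKO and 12.4% in control. H3K27ac lay over 39.3% in cKO and 35.9% in control, against 36.5% of all in cKO and 36.8% in control. Of the 74 regions open throughout, 37 met H3K27me3 in control (50%), against 15.1% of all such regions.

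No start window was available for Fzd2, Fzd3, Fzd6, Fzd8, Lrp5, Lrp6, Dkk3, Dkk4, Sfrp1, Sfrp4, Wnt5a, Wnt7b, Wnt8a and Wnt10a. The shares below describe the genes with a window and not the whole family. At the starts themselves, H3K27me3 was in 23 of the 30 windows in each genotype (76.7%), against 16.5% of all start windows in cKO and 16.7% in control. No window changed, where 6.76% of all with the mark had it in cKO only and 7.62% in control only. H3K27ac was in 11 windows in cKO and 10 in control, and the difference was Frzb (2.08% of all with the mark had it in cKO only and 2.93% in control only). A start window was open in all 4 ATAC lists at 10 of the 30, against 50.9% of all. These were the starts of Fzd1, Fzd4, Fzd5, Fzd7, Fzd9, Frzb, Sfrp2, Wif1, Wnt2b and Wnt9a, so 2 of the 10 belonged to ligands. Most of the 30 windows are those of ligand genes. Wif1, the antagonist that binds Wnt ligands through its WIF domain, had an open start without H3K27ac. H3K27me3 covered only 53 bp of that window in cKO and 56 bp in control. The open start of Wnt2b also lacked H3K27ac, and H3K27me3 covered all of it in both genotypes.

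The intracellular and modulatory part of the pathway was followed in 59 further genes. Of 55 with H3K27ac none was at least 1.5-fold higher (3.16% of all genes were), and 1 was lower (4.88% of all genes). This was Sp5, a direct beta-catenin target, listed at 0 in cKO with 195 bp in control. Of 45 with H3K27me3, 4 were higher, where 10.4% of all genes were, and 4 were lower, where 12.5% were. The higher ones all had 0 bases in control: Celsr2 (350 bp in cKO), Kremen1 (381 bp), Sostdc1 (124 bp) and Nlk (361 bp). The 4 lower were Dvl1 with 540 bp in cKO and 981 bp in control, Tspan12 with 709 bp in cKO and 1487 bp in control, and Lgr4 and Daam1, listed at 0 in cKO with 141 and 233 bp in control. Tspan12 is the partner of Fzd4 in Norrin signalling, and Dvl1 relays the signal inside the cell. Axin2, the feedback target of the canonical branch, had 3102 bp of H3K27ac in cKO and 3405 bp in control.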

How the data were processed

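The 8 deposited peak lists were used; 2 input samples were not analysed here. The authors' lists give each peak's position, name and a score of 0. The submitters' processing notes name Bowtie2, deepTools, MACS2 and the build mm10. The sources used here give no thresholds, peak mode, duplicate handling or Tn5 shift. Depth is unknown, so no interval is given, and list length may reflect sequencing depth. Groups came from the sample titles.

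Gene positions and start windows came from RefSeq tables of GRCm38.p6, chromosomes 1 to 19. Of the Wnt family windows, 14 hold another protein-coding gene or part of one. Among them are Dkk3 (with Usp47), Fzd4 (Tmem135), Fzd3 (Fbxo16) and Wnt8b (Sec31b), so peaks there cannot all be assigned to the family gene. Covered bases were summed over gene body plus 5 kb. A histone call is log2((cKO + 200 bp)/(control + 200 bp)) past 1.5-fold. ATAC regions were joined by 1 bp overlap. No block was used, and replicate-number deviations correlated at -0.787 over 17133 genes. Each replicate number joins 1 long and 1 short list, so this value cannot tell whether libraries were paired by day. The code was tested on simulated data. Named genes are those past a threshold, those with the largest shares and those known in the eye. Python 3.11.15, pandas 2.3.3 and numpy 2.4.6 were used. The genes and lists were chosen with earlier results of these data known.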

Additional observations from a re-analysis of the deposited data

How the results depend on the processing

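Of the recomputed counts, 85 stayed within 1.5 times the reported count and 33 moved. Of the log2 ratios of single genes past 1.5-fold, 70 stayed past it in the same direction, 9 fell within it and 1 reversed. Not in these numbers are calls lost because a setting left the gene with no bases or too few. Those were Wnt8b and Fzd3 with gene bodies only, and Wnt7a and Fzd3 with peaks of at least 300 bp. With at least 1000 bp in the larger list they were Dkk2, Fzd10, Wnt7a, Wnt11, Wnt8b and Fzd3. The cause was not tested in any case. With gene bodies only, no ATAC region was called in cKO only (0) and no gene was lower in H3K27me3 (0). With 10 kb either side, 0 genes had neither mark. With peaks of at least 300 bp, 0 regions were in cKO only, 4 genes were higher in H3K27ac and 1 lower in H3K27me3, and the Dkk2 log2 ratio in H3K27ac turned to 1.35. With lists cut to equal length, 3 genes were higher in ATAC and 4 regions were in control only. Divided by list totals, 3 genes were higher and 3 lower in ATAC. Leaving out 1 ATAC library at a time gave 0 to 34 genes higher, 0 to 32 lower, 1 to 33 regions in cKO only and 0 to 38 in control only: without control 1, 32 genes were lower and 38 regions control only; without control 2, 34 were higher and 33 regions cKO only; without cKO 1, 3 were lower and 4 regions control only; without cKO 2, 8 were higher and 11 regions cKO only. Taking same-numbered libraries as pairs called 0 genes higher and 0 lower. In those pairs cKO 1 exceeded control 1 at 40 genes and control 2 exceeded cKO 2 at 41, so no gene could be called. The same-numbered libraries deviated in opposite directions (correlation -0.787). The crossed pairing, chosen after seeing the data, called 6 higher and 3 lower. With 50 bp added, 4 genes were higher in H3K27ac and 2 in H3K27me3. With 1000 bp added, 1 was higher and 0 lower in H3K27ac, and 0 higher and 1 lower in H3K27me3. With at least 1000 bp in the larger list, 1 was higher and 0 lower in H3K27ac and 1 lower in H3K27me3. With marks counted from 5% of the window, 21 genes in control had H3K27me3 only, 10 both and 4 neither. Without the bases of other genes, also chosen after seeing the data, 3 were higher in H3K27me3 (Sfrp2, Wnt5b and Fzd4). Peak heights and depths are unknown, so a small peak in 1 list alone cannot be told apart from one just under the threshold in the other.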
